A study of Mus musculus with 6 samples.

Results

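The genes described here mark Cajal-Retzius cells and the earliest neurons of the preplate, the first neuronal layer of the embryonic cortex. They were chosen by name as 10 genes known to label these cells, Reln, Trp73, Lhx1, Lhx5, Calb2, Ebf2, Ebf3, Nhlh2, Barhl2 and Cxcr4, out of 55471 gene rows in the count tables. Earlier results of these data were known when they were chosen, so shares of these 10 set beside those of all genes are descriptive. All 10 had counts in every library and all were tested, among 17128 genes tested. RNA-seq was carried out on the rostral-most part of the mouse telencephalic primordium at E11.5, in 3 control and 3 Rx-Dicer libraries. Control embryos carried floxed Dicer alleles without Cre according to the protocol, although their genotype tag reads WT. Rx-Dicer embryos carried the same floxed alleles (Dicer F/F, from the line Dicer1tm1Bdh/J kept in C57BL/6) together with Rx3-Cre, a Cre line kept in a CD1 background. Both genotypes may therefore hold a mixed genetic background. Cre in this line follows the regulatory sequences of Rax and, by the study's account, recombines early and most strongly in the rostral and ventral telencephalon and only weakly in the neocortex at this age. Whether 1 embryo or more went into a library is not given by the labels, so the p-values measure the spread between these libraries.

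Cajal-Retzius cells are among the first neurons to be born in the telencephalon. They arise at its edges, in the cortical hem, the septum and the ventral border of the pallium, and spread by tangential migration beneath the meninges. There they secrete reelin, the glycoprotein that guides the layering of later-born cortical neurons. Their precursors lie in a territory where Lhx2 and Pax6 normally restrict the fate. Dicer cuts precursor hairpins into mature miRNAs, which pair through their seed, bases 2 to 8, with sites in the 3′ UTRs of mRNAs. The comparison of control and Rx-Dicer libraries addresses how mRNA levels differ where Dicer has been deleted.

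Sites for miRNAs that are well known in the embryonic brain were looked up in the 3′ UTRs of the members, since these sites are the letters through which a loss of miRNAs could act on an mRNA directly. The mature sequences below are from the RefSeq table for GRCm38.p6, with the seed in capitals. The let-7 seed is shared by 11 mature names of the table, and that of miR-9-5p belongs to 1 name.
mmu-let-7a-5p: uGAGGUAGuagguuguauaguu
mmu-miR-9-5p: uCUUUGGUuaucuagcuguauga

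The words searched on the mRNA strand were CTACCTC for let-7, ACCAAAG for miR-9, CTCAGGG for miR-125b and TACGGGT for miR-99a, each 7 bases long and called an 8-base site where an A followed. The longest annotated 3′ UTR of each gene was used, in GENCODE M21 on GRCm38. Of the 10 members, 1 had a let-7 site, 3 had a miR-9 site, and none had a miR-125b or miR-99a site. The same words were found in 10.8% of 14061 tested genes with a 3′ UTR for let-7, 14.3% for miR-9, 15.8% for miR-125b and 1.37% for miR-99a. The 4 sites are shown with their flanks, on the mRNA strand and with the site in capitals.
Trp73, let-7, chr4:154057185-154057213, minus strand: gctgccccatgCTACCTCAgaaactaggc
Lhx5, miR-9, chr5:120440468-120440496, plus strand: aatttctcgggACCAAAGtcaatattctg
Calb2, miR-9, chr8:110142568-110142596, minus strand: tcttcttgtttACCAAAGAagagtttaca
Cxcr4, miR-9, chr1:128588323-128588351, minus strand: tggcacttaaaACCAAAGcctgaaatggt

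The sites of Trp73 and Calb2 were of the 8-base kind, which 3.78% of the genes had for let-7 and 4.74% for miR-9. A site begins 1789 bases after the stop codon in the Trp73 3′ UTR of 2738 bases, 154 bases after it in that of Lhx5, 499 in that of Calb2 and 503 in that of Cxcr4. A match of letters is a description and not a proven site of binding. The remaining 6 members, among them Reln and Lhx1, held none of the 4 words. None of the 4 genes with a site was called, and the log2 fold changes of the 3 with a miR-9 site were 0.84 for Lhx5, -0.94 for Calb2 and 0.18 for Cxcr4.

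Gene counts per library ranged from 34471501 in control 1 to 48373468 in Rx-Dicer 1, and 3 counts, the smallest level counted as detected, equalled 0.0620 to 0.0870 CPM. This floor covers counting error only. Dicer1 itself had 6355, 7070.2 and 6270.4 normalised counts in the controls and 4777, 7002 and 4644 in the Rx-Dicer libraries. Its log2 fold change was -0.26 ± 0.17 (SE), so it was not called, and Rx-Dicer 2 lay within the control range. Gene counts do not separate the floxed part from the rest of the gene and therefore do not check the deletion. Emx2, a homeobox gene of the dorsal telencephalon, was detected in all 6 libraries, at 4997 to 9840.1 normalised counts.

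Of the 10 members, 1 was called, Lhx1, which rose in the Rx-Dicer libraries. A call required an adjusted p below 0.05 in the DESeq2 Wald test and a level more than 25% higher, or lower by the same ratio, which are the tool and limits of the study, and 2.93% of the genes tested were called. Of the genes tested, 1.75% were called higher and 1.18% lower. The edgeR quasi-likelihood test called none of the members and only 0.0446% of the genes it tested. At an unadjusted p under 0.05, 4 of the 10 members passed in DESeq2, where 13.1% of all genes tested did, and 4 passed in edgeR, where 12.9% did. In both tools these were Lhx1, Lhx5, Calb2 and Barhl2, of which the LIM genes were higher and the other pair lower. The median log2 fold change of the members was 0.17, and that of all genes tested was -0.001. In bulk tissue, fewer cells of a type and less RNA per cell cannot be told apart, for these and for all values that follow.

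**Figure D1:**
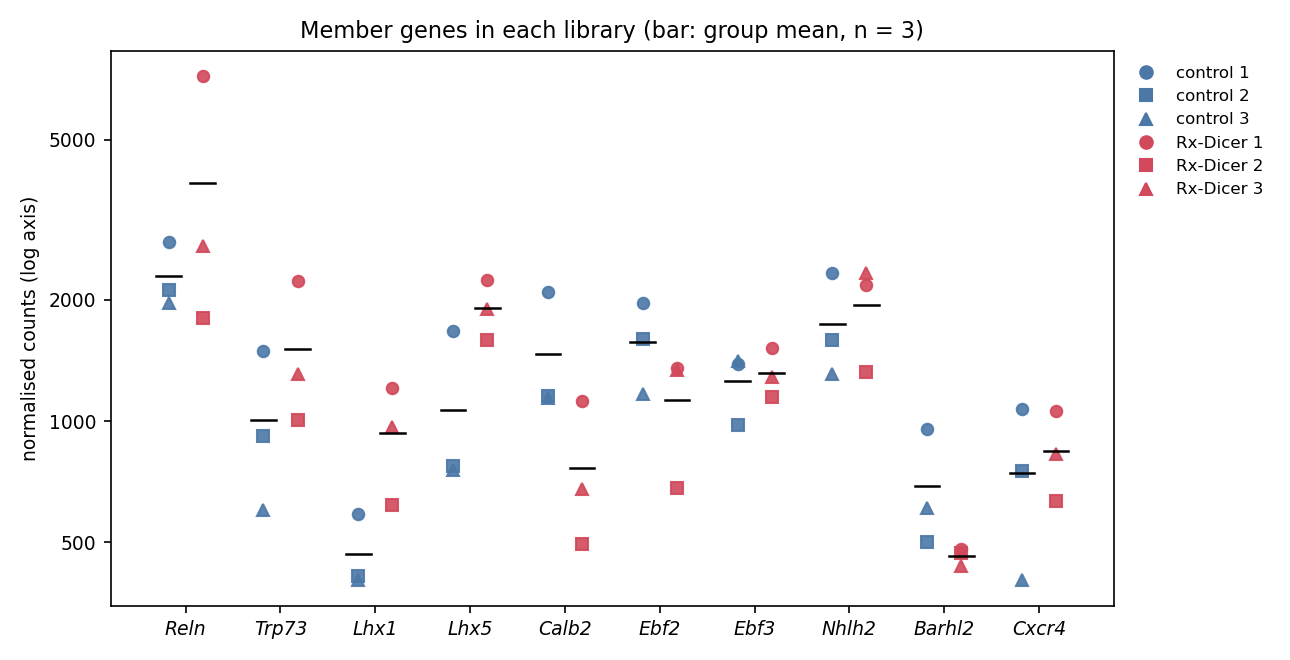
Normalised counts (log axis) of the 10 members in each of the 3 control (blue) and 3 Rx-Dicer (red) libraries, with the shape marking the library number and the bar the group mean. The 3 Rx-Dicer values of Lhx1 lie above all control values, those of Calb2 and Barhl2 lie below them, and Rx-Dicer 1 stands high for Reln at 7203.

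Lhx1 (chromosome 11, 84518284 to 84525535, minus strand, GRCm38) encodes a LIM homeodomain transcription factor of early-born neurons, Cajal-Retzius cells included. It had 589, 413.5 and 402 normalised counts in the controls and 1212, 620.5 and 965 in the Rx-Dicer libraries. Every Rx-Dicer library was above every control, the nearest being Rx-Dicer 2 and control 1. The log2 fold change was 1.00 ± 0.24 (SE), a 1.995-fold higher level, its 95% interval ran from 0.52 to 1.47, and DESeq2 gave an adjusted p of 0.00393. The edgeR adjusted p was 0.203. Lhx1 was called under 12 of 17 alternatives. It was not called in edgeR, nor in DESeq2 without control 2 (adjusted p 0.109), control 3 (0.0790), Rx-Dicer 1 (0.0828) or Rx-Dicer 3 (0.0766). Its log2 fold change stayed between 0.76 and 1.22 when any 1 library was left out.

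Lhx5 (chromosome 5, 120431699 to 120441223, plus strand) is the close relative of Lhx1, and is expressed in the cortical hem and other sources of Cajal-Retzius cells. Its normalised counts were 1673, 773 and 758 in the controls and 2247, 1590.4 and 1895 in the Rx-Dicer libraries. Control 1 lay above Rx-Dicer 2, so the groups overlapped through 1 control. The log2 fold change was 0.84 ± 0.26 (SE), and DESeq2 gave an adjusted p of 0.0503, just short of the limit, and an edgeR adjusted p of 0.305. Lhx5 was called under 5 of 17 alternatives. With control 1 kept, it was called with TMM size factors (DESeq2 adjusted p 0.0488) and with the second file alone (0.0347). A replicate block and an adjusted p limit of 0.1 also gave a call. Without control 1 it was called with a log2 fold change of 1.32 and a DESeq2 adjusted p of 3.0e-10. Leaving out any other single library gave no call, and the value fell as low as 0.65 (adjusted p 0.333) without control 3, with an adjusted p of up to 0.4996 without Rx-Dicer 3.

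The LIM pair changed to a similar degree between the genotypes. The ratio of Lhx5 to Lhx1 was 2.84, 1.87 and 1.89 in the controls and 1.85, 2.56 and 1.964 in the Rx-Dicer libraries. These ratios overlapped between the genotypes, and their mean log2 values differed by -0.03. Each of these genes has a transcript on the other strand that starts close to it. Lhx1os, a lincRNA whose start lies 125 bases from that of Lhx1, had 52.5, 44.8 and 33.8 normalised counts in the controls and 86.6, 48.9 and 63.7 in the Rx-Dicer libraries, which overlapped. Gm27199, an antisense transcript that starts 68 bases from the start of Lhx5 and overlaps it, had 23.2, 13.2 and 14.1 against 51.5, 38.7 and 28.5 and did not overlap between genotypes. Its log2 fold change was 1.246 ± 0.51 (SE) and it was not called, at an adjusted p of 0.199 in DESeq2. Strand was used in counting, so the reads of partners on opposite strands were kept apart.

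The window around the start of Lhx1, the called member, is shown because it also holds the start of Lhx1os. It runs from 250 bases before to 50 after the start, on the strand of Lhx1 in the RefSeq table for GRCm38.p6, and has 65.7% G and C and 31 CpG.
Lhx1, chr11:84525485-84525784, minus strand: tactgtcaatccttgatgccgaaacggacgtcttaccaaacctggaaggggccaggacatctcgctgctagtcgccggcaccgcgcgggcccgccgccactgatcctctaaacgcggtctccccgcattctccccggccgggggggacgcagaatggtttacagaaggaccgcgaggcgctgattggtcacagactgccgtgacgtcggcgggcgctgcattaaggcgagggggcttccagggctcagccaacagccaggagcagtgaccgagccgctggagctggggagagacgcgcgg

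Such windows were given for 7 of the 10 members, with 8 entries since Trp73 has a pair of starts. On either strand, the homeodomain core TAATTA was in none of the 8, against 5.29% of 32851 windows of the same length, and the palindrome bound by EBF factors in none, against 0.904%. The E-box CAGCTG was in 1 window of Nhlh2 and 1 of Trp73, against 16.3%, and TATAAA was in that of Cxcr4, against 13.6%. These words say only which letters the windows hold.

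Reln (chromosome 5, 21884454 to 22344702, minus strand) encodes reelin, the secreted product of Cajal-Retzius cells. It had 2791, 2112 and 1965 normalised counts in the controls and 7203, 1808 and 2728 in the Rx-Dicer libraries. A single library, Rx-Dicer 1, stood far above the rest, while Rx-Dicer 2 was the lowest of all 6. The log2 fold change was 0.77 ± 0.63 (SE), with a 95% interval from -0.47 to 2.02 and a DESeq2 adjusted p of 0.721. Without Rx-Dicer 1 it was -0.01. The SD was 2886 over the 3 Rx-Dicer libraries (mean 3913) and 440.5 over the 3 controls (mean 2290.0).

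The genes through which reelin acts gave no call. Of 13 genes of the reelin pathway, none was called in DESeq2 or in edgeR, and 2 had an unadjusted DESeq2 p under 0.05. Yes1, a Src-family kinase, had a log2 fold change of 0.31 ± 0.12 (SE), and Dab1, the adaptor bound to reelin receptors, one of -0.32 ± 0.15. The receptors Vldlr and Lrp8 had values of 0.17 ± 0.15 and 0.07 ± 0.17. The summed level of the 13 genes was 55533 to 58099 normalised counts in the controls and 55262 to 58911 in the Rx-Dicer libraries. These summed levels overlapped between the genotypes.

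Trp73 (chromosome 4, 154056253 to 154140208, minus strand) encodes p73, a p53-family protein required for Cajal-Retzius cells to persist. Its normalised counts were 1497.5, 919.7 and 602 in the controls and 2226, 1005 and 1307 in the Rx-Dicer libraries. The groups overlapped, and the log2 fold change was 0.59 ± 0.51 (SE), and DESeq2 gave an adjusted p of 0.753. It was called under none of the 17 alternatives, with values from 0.20 without Rx-Dicer 1 to 0.99 without control 1. The gene has an upstream start, which gives the full-length form, and an internal start, which gives the form without the transactivation domain, and a count per gene does not separate them. The windows of the pair are shown on the gene's strand, from the same table, with an E-box in capitals.
Trp73 upstream start, chr4:154139826-154140125, minus strand: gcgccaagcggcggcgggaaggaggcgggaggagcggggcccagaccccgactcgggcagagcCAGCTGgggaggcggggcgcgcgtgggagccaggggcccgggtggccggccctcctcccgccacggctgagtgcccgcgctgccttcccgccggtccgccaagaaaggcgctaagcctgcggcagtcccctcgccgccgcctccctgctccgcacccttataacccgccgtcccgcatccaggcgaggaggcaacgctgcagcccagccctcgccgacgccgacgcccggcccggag
Trp73 internal start, chr4:154097124-154097423, minus strand: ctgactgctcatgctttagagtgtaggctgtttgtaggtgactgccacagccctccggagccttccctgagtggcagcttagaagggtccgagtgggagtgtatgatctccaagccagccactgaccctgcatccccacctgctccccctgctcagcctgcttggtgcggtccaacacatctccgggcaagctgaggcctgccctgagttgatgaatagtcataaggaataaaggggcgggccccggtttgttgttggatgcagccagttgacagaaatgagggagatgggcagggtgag

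The upstream window was rich in CpG, with 39 and a G and C content of 77.7%, and the internal window had 6 and 57.7%. The antisense gene Trp73os, which overlaps the internal window, had 0 counts in every library, a level under the floor of 3 counts. Wrap73, which starts 2164 bases from Trp73 on the other strand, had a log2 fold change of 0.05 ± 0.16 (SE). Of the other p53-family genes, Trp53 had a log2 fold change of 0.19 ± 0.12, and neither it nor Trp63 was called. Trp63 varied between libraries, with 318, 6.11 and 144 normalised counts in the controls and 24.9, 4.08 and 1.90 in the Rx-Dicer libraries.

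Calb2 (chromosome 8, 110137502 to 110168210, minus strand) encodes calretinin, the calcium-binding protein used to label Cajal-Retzius and preplate neurons. It had 2098, 1156 and 1140.4 normalised counts in the controls and 1121, 494 and 677 in the Rx-Dicer libraries. All Rx-Dicer values lay below all control values, though Rx-Dicer 1 was only just below control 3. The log2 fold change was -0.94 ± 0.45 (SE), a level 1.92-fold lower, with a DESeq2 adjusted p of 0.324 and an edgeR adjusted p of 0.308. The gene was called under 4 of 17 alternatives. With 1 library left out the log2 fold change ran from -1.32 without Rx-Dicer 1, where the gene was called at a DESeq2 adjusted p of 0.00125, to -0.59 without control 1, where the adjusted p was 0.391.

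Barhl2 (chromosome 5, 106452523 to 106458166, minus strand), a homeobox gene of early caudal and diencephalic neurons and of some Cajal-Retzius cells, was low in a similar way. Its normalised counts were 959, 502 and 609.7 in the controls and 482, 471 and 436 in the Rx-Dicer libraries. The groups did not overlap, but control 2 lay close to Rx-Dicer 1. The log2 fold change was -0.57 ± 0.23 (SE), and the gene was not called, with a DESeq2 adjusted p of 0.167 and an edgeR adjusted p of 0.366. Without control 1 the log2 fold change was -0.27, and without control 2 it was -0.76. The Rx-Dicer libraries were close to one another, with an SD of 23.8 against 239 over the controls.

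With Lhx1 above and Calb2 and Barhl2 below, 3 of the 10 members did not overlap between genotypes, against 19.3% of the genes tested. For 8.55% of them the Rx-Dicer values were all higher and for 10.7% all lower.

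Ebf2 and Ebf3 encode EBF transcription factors of early neurons, and Ebf2 marks Cajal-Retzius cells in reporter mice. Ebf2 (chromosome 14, 67233292 to 67430918, plus strand) had 1963, 1596 and 1168 normalised counts in the controls and 1354, 684 and 1343 in the Rx-Dicer libraries. For Ebf2 the log2 fold change was -0.48 ± 0.25 (SE), and DESeq2 gave an adjusted p of 0.397, and the groups overlapped through control 3. Without Rx-Dicer 2 it was -0.22. Ebf3 (chromosome 7, 137193673 to 137314445, minus strand) had 1384, 979.8 and 1409 in the controls and 1515.5, 1145 and 1286 in the Rx-Dicer libraries. Its log2 fold change was 0.07 ± 0.18 (SE), and DESeq2 gave an adjusted p of 0.960 and a 95% interval from -0.28 to 0.41. Without control 2 it was -0.09.

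For Nhlh2 and Cxcr4 the groups overlapped. Nhlh2 (chromosome 3, 102010076 to 102015492, plus strand), a helix-loop-helix factor of newly born neurons, had 2330.5, 1591 and 1312 normalised counts in the controls and 2184, 1321 and 2340.5 in the Rx-Dicer libraries. For Nhlh2 the log2 fold change was 0.16 ± 0.24 (SE), within a 95% interval from -0.30 to 0.63, and the DESeq2 adjusted p was 0.896. Cxcr4 (chromosome 1, 128588199 to 128592293, minus strand), the CXCL12 receptor that holds Cajal-Retzius cells beneath the meninges, had 1071, 753 and 404 in the controls and 1062, 632 and 831 in the Rx-Dicer libraries. Its log2 fold change was 0.18 ± 0.29 (SE), and DESeq2 gave an adjusted p of 0.908, and without control 3 it was -0.11. Of the other genes of the CXCL12 axis, 0 of 2 were called. Cxcl12, the ligand that the meninges secrete, had a log2 fold change of 0.17 ± 0.40 and Ackr3, its other receptor, one of -0.26 ± 0.14.

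**Figure D2:**
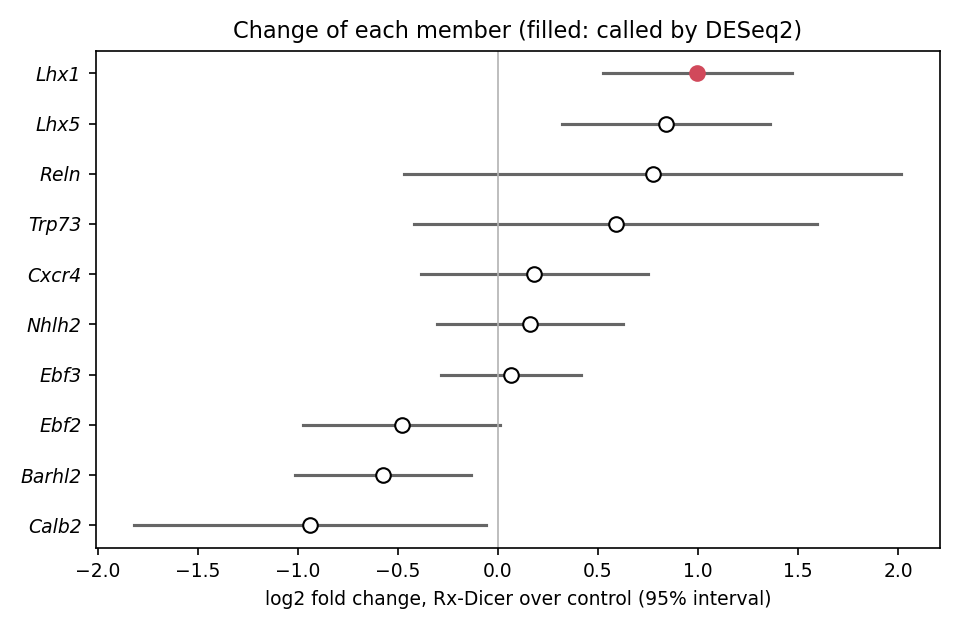
Log2 fold change (Rx-Dicer over control) of the 10 members with 95% intervals from the DESeq2 fit of 3 against 3 libraries, and the called gene filled in red. Lhx1 leads at 1.00, Calb2 has the lowest value at -0.94, and the intervals of Reln, Trp73, Ebf2, Ebf3, Nhlh2 and Cxcr4 include 0.

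Per kilobase of exons, the controls had from 96.5 normalised counts for Reln to 840.5 for Calb2. The length was that of all annotated exons of a gene merged, 23738 bases for Reln. It can exceed the length of the mRNA, so the order need not be that of mRNA amounts. The order of the members was Calb2, Cxcr4, Lhx5, Nhlh2, Barhl2, Ebf2, Trp73, Ebf3, Lhx1 and Reln. Neighbours in this order overlapped in every case except that the lowest control value of Calb2, 654, exceeded the highest of Cxcr4, 592.5. In the Rx-Dicer libraries Lhx5 had the highest level per kilobase, 711, ahead of Cxcr4 with 465 and Calb2 with 438. The Lhx5 range of 591 to 836 overlapped that of Calb2, from 283.5 to 643.

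The libraries of a genotype differed from each other along much of the list. Control 1 was the highest control for 9 of the 10 members and Rx-Dicer 1 the highest Rx-Dicer library for 9. Control 3 was the lowest control for 8 members and Rx-Dicer 2 the lowest Rx-Dicer library for 9. Summed over the members, the normalised counts were 16356, 10796 and 9770.6 in the controls and 20606, 9770.6 and 13809 in the Rx-Dicer libraries. The members thus rose and fell largely together from one library to the next within a genotype. In the controls the gene counts, 34471501, 42570447 and 44614586, ran in the reverse order of the member sums. In the Rx-Dicer libraries, at 48373468, 40006887 and 45819358, they ran in the same order. The part of depth in these values was not tested.

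**Figure D3:**
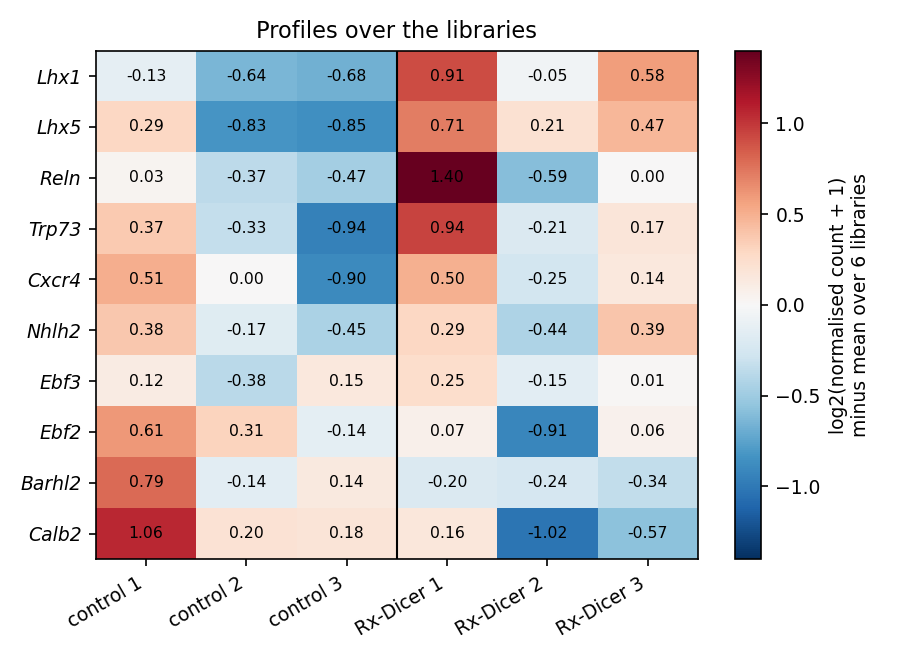
Log2(normalised count + 1) of each member minus its mean over the 6 libraries, with members ordered by their log2 fold change. Control 1 and Rx-Dicer 1 are mostly red and control 3 and Rx-Dicer 2 mostly blue, while Lhx1 and Lhx5 at the top and Calb2 and Barhl2 at the bottom differ between the genotypes in opposite directions.

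Genes of the regions that give rise to Cajal-Retzius cells varied across the same libraries. Wnt8b, a Wnt of the cortical hem and medial pallium, had 5897, 1842 and 320 normalised counts in the controls and 5582, 2712 and 3575 in the Rx-Dicer libraries. Dbx1, a homeobox gene of the septum and ventral pallium, had 344, 47.9 and 96.8 against 393, 199 and 379. Of the 9 genes of this list 8 were tested, none was called in DESeq2 or edgeR, and none had an unadjusted DESeq2 p under 0.05. All 9 had a log2 fold change above 0, with a median of 0.32, while 49.85% of all genes tested lay above 0. The 9 genes share libraries and are not independent. Wnt3a was the gene without a p-value. The summed level of the list was 15328, 7155 and 4582 in the controls and 13916, 9010.5 and 12164 in the Rx-Dicer libraries. In each genotype the order of the libraries by this sum was the same as by the sum of the members. Subpallial markers were highest in control 3 and Rx-Dicer 2, with summed levels of 3222, 4245 and 9848 in the controls and 4315, 14356 and 2967 in the Rx-Dicer libraries. The part of such regional differences in the values of the members was not tested.

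Since the members shared this variation, the ratio of 1 member to another within a library was compared, a measure chosen after the values had been seen. Calb2 over Lhx1 was 3.56, 2.80 and 2.84 in the controls and 0.925, 0.796 and 0.702 in the Rx-Dicer libraries. The groups lay far apart, and the mean log2 ratio was 1.61 ± 0.20 (SD, n = 3) in the controls and -0.32 ± 0.20 in the Rx-Dicer libraries. Calb2 over Lhx5 was 1.254, 1.495 and 1.504 against 0.499, 0.311 and 0.357, and Calb2 over Reln was 0.752, 0.547 and 0.580 against 0.156, 0.273 and 0.248. Every Rx-Dicer library thus held fewer Calb2 counts per Lhx1, Lhx5 or Reln count than every control library. Barhl2 over Lhx1 was 1.63, 1.21 and 1.52 against 0.398, 0.759 and 0.452, and Ebf2 over Lhx1 was 3.33, 3.86 and 2.90 against 1.12, 1.10 and 1.39.

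Of the 45 pairs of members, 23 had ratios that did not overlap between the genotypes, which is 51.1% of pairs, against 18.3% of all pairs of tested genes. The members were put into ratios because they varied together. This was not examined for the pairs of all tested genes, so these shares are not strictly alike. Calb2 was in 7 of the 23 pairs, Lhx5 and Ebf2 in 6 each, Lhx1 in 5 and Reln in 2. The pairs share genes and libraries and are not independent, and with 3 libraries against 3 an exact permutation test cannot give a p below 0.1. Ratios among Lhx1, Lhx5, Reln and Trp73 overlapped between the genotypes, as did those among Calb2, Barhl2 and Ebf2. The mean log2 ratio of Barhl2 to Ebf2 was -1.21 in the controls and -1.22 in the Rx-Dicer libraries, and that of Reln to Trp73 was 1.27 and 1.201.

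**Figure D4:**
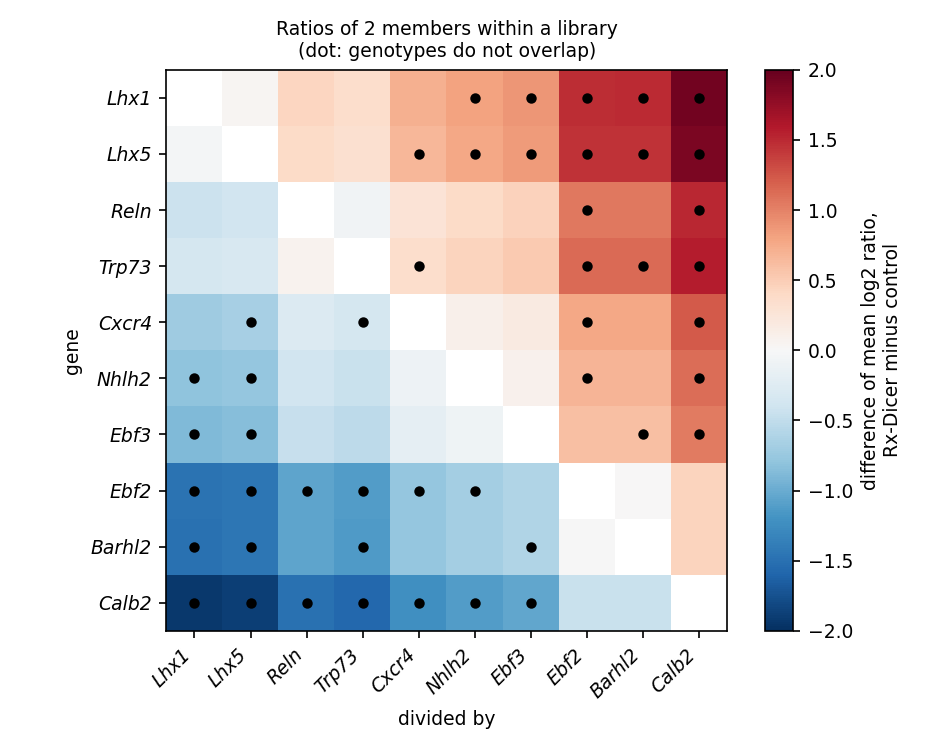
Difference between genotypes (Rx-Dicer minus control) in the mean log2 ratio of the gene in the row to the gene in the column, with a dot where the 3 control and 3 Rx-Dicer ratios do not overlap. Of the 23 pairs with a dot the lowest difference is -1.92 for Calb2 over Lhx1, and every pair of Lhx1, Lhx5 or Trp73 with Calb2, Ebf2 or Barhl2 carries one.

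Other markers of these neurons were examined as a list of 11 genes, of which none was called in DESeq2 or edgeR and 4 had an unadjusted DESeq2 p under 0.05, 1 with a higher and 3 with a lower level. Of the 11 genes, 4 had a log2 fold change above 0 and 7 below 0. Ndnf, a secreted protein of Cajal-Retzius cells, had 1119, 888 and 902 normalised counts in the controls and 545.5, 734 and 763 in the Rx-Dicer libraries. Cacna2d2, a calcium channel subunit, had 1778, 1576 and 1510.5 against 1321, 1237 and 1131. The groups did not overlap for these genes, and the DESeq2 adjusted p was 0.0922 for Ndnf and 0.0760 for Cacna2d2. Calb1, which encodes calbindin, lay the other way at 0.70 ± 0.32 (SE), and Tbr1, a transcription factor of preplate neurons, at -0.46 ± 0.24, with DESeq2 adjusted p-values of 0.295 and 0.376. The summed level of the list was 14574 to 23601 in the controls and 11381 to 18203 in the Rx-Dicer libraries, with a median log2 fold change of -0.18.

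The genes that restrict the Cajal-Retzius fate gave 1 call in 6. Pax6, a homeobox gene of pallial progenitors, fell from 7210.2, 6927 and 6726 normalised counts in the controls to 5064, 4749 and 5629 in the Rx-Dicer libraries. Its log2 fold change was -0.43 ± 0.11 (SE), and DESeq2 gave an adjusted p of 0.0127 and an edgeR adjusted p of 0.144. Lhx2, a LIM homeobox gene of the pallium, had a log2 fold change of -0.16 ± 0.18 (SE) and was not called.

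Across 16 lists outside the members, 105 of 112 genes were tested and 10 were called, 7 higher and 3 lower. Of 14 early pan-neuronal genes, Nefl and Nefm, which encode neurofilament subunits, rose by 1.52 ± 0.29 and 0.74 ± 0.20 on the log2 scale, Stmn3, a tubulin-binding protein of neurons, changed by -0.61 ± 0.16, and 11 were not called. The summed level of the neuronal genes was 75529 to 96678 normalised counts in the controls and 65887 to 89821 in the Rx-Dicer libraries, and the ranges overlapped. Of 8 progenitor genes Fabp7 changed by -0.76 ± 0.22, and of 8 subpallial genes Lhx6, which marks interneurons of the medial ganglionic eminence, rose by 1.61 ± 0.34. None of these calls was made by edgeR.

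Markers of other cells were measured beside the members. Of 6 hypothalamic markers Otp and Bsx were called higher, and the summed level of the 6 was 78.4 to 231 normalised counts in the controls and 1035 to 1984 in the Rx-Dicer libraries. Nkx2-1, which ventral telencephalon expresses too, accounted for 682, 1882 and 1307 in the Rx-Dicer libraries and 3.66, 51.9 and 192 in the controls, and was not called. Of 5 microglial markers Csf1r and Cx3cr1 were called higher, with summed levels of 580.5 to 818 in the controls and 735 to 2102 in the Rx-Dicer libraries, highest in Rx-Dicer 1, as for most members. None was called among 6 thalamic and prethalamic, 6 olfactory placode, 6 meningeal, 5 endothelial and 5 erythroid markers. The thalamic genes summed to 1762.5 to 3630 in the controls and 2318 to 3107 in the Rx-Dicer libraries, the meningeal genes to 31680 to 73011 and 47978 to 63068, and the endothelial genes to 5515 to 5706.5 and 3139 to 7327. The olfactory genes summed to 4276 to 6311 and 4966 to 6567, and the erythroid genes to 399530 to 920720 and 330620 to 911470. Barhl1, Foxb1 and Foxi3 were at 0 in at least 1 library. The part of these cells in the values of the members was not tested.

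**Figure D5:**
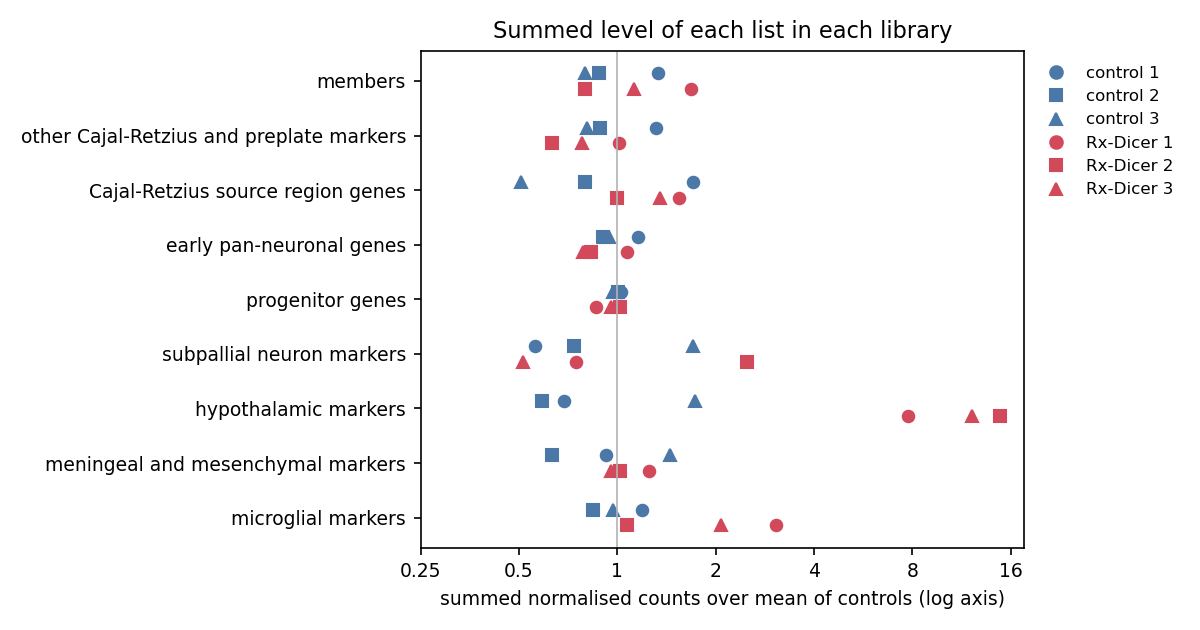
Summed normalised counts of the members and of 8 other lists in each library, divided by the mean of the 3 controls (log axis), with control libraries in blue and Rx-Dicer libraries in red. The hypothalamic markers separate the genotypes, the members and the source region genes do not, and the subpallial markers run against them in control 3 and Rx-Dicer 2.

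The genes whose profile over the 6 libraries was most like the mean profile of the 10 members were Snap25, Igfbpl1, Larp6, Cd1d1 and Prag1. The measure was the root mean square difference between profiles of log2(normalised count + 1) centred on their means, and it was 0.057 for Snap25 and 0.077 for Prag1. Snap25, a synaptic protein, had 501, 333 and 306 normalised counts in the controls and 590.1, 329 and 414 in the Rx-Dicer libraries. Of the members, Nhlh2 lay nearest to this mean with 0.16, and Calb2 farthest with 0.57.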

How the data were processed

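RNA-seq of 3 control and 3 Rx-Dicer samples was analysed from the raw read counts per gene that the authors deposited. Per the study's methods and the submitters' processing notes, reads were trimmed (Trim Galore 0.6.5), aligned to GRCm38.p6 with HISAT2 and counted per Ensembl gene with HTSeq 0.12.4 in union mode on the reverse strand, so reads shared by genes were left out. Each sample had 2 files. Chi-square per degree of freedom was 1.11 to 1.47 between them and 20.5 to 29.6 between samples of a genotype, so they were summed as repeat runs. Normalised counts are counts divided by DESeq2 size factors. The test was the DESeq2 1.42.0 Wald test (R 4.3.3) over all genes, with Benjamini-Hochberg adjustment and independent filtering, and an alternative was edgeR 4.0.16 (TMM factors, 10 or more counts in 3 samples). The 17 alternatives were edgeR, other scalings, filters or thresholds, a replicate block, single files, only protein-coding genes, and each library left out. The members and lists were chosen with earlier results of these data known. Named genes were all members, the called genes of each list or else up to 2 with the smallest p, the 5 most similar profiles, and genes on the opposite strand, and others named beside them were chosen after their values were seen. Replicate numbers of the titles did not pair the samples: correlations of same-numbered deviations were 0.287, -0.015 and -0.264 over 14165 genes. Those between differently numbered samples ran from -0.27 to 0.312. Of the list genes that the text would name, 1 is counted but not reported here.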

Additional observations from a re-analysis of the deposited data

How the results depend on the processing

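The count of 1 member called became 0 in edgeR and 2 with TMM factors, with an adjusted p under 0.1, for protein-coding genes alone and with the first or the second file alone, and ranged from 0 (without control 2, control 3 or Rx-Dicer 3) to 2 (without control 1) when a library was left out, with Calb2 called in place of Lhx1 without Rx-Dicer 1. Of the list genes 10 were called, 0 in edgeR and 4 to 15 with a library left out. Of all genes 502 were called, 8 in edgeR, 322 without independent filtering and 285 (without control 2) to 637 (without Rx-Dicer 1) with a library left out. With the replicate number as a block, 3 members (Lhx1, Lhx5 and Calb2) and 314 genes were called. The titles do not say whether the numbers mark pairs. Among the single genes, 150 member values kept direction and call. The log2 fold change turned sign in 6 of the member values, all with a library left out. These values ran from -0.014 (without Rx-Dicer 1) to 1.122 for Reln, from -0.086 (without control 2) to 0.160 for Ebf3, which was also -0.050 without Rx-Dicer 1, from -0.008 (without control 3) to 0.424 for Nhlh2, and from -0.114 (without control 3) to 0.541 for Cxcr4, which was also -0.022 without Rx-Dicer 1. In the same way the values ran from -0.055 to 0.530 for Cxcl12, -0.001 to 0.490 for Lmx1a, -0.045 to 0.379 for Col1a1, -0.602 to 0.404 for Hbb-y and -0.928 to 0.311 for Hbb-bh1. The cause was not tested. Depth did not limit the members, all of which were well above the floor in every library, whereas 3 libraries per genotype did limit the precision.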
